A study of Mus musculus with 12 samples.

Results

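Mitosis and spindle genes were followed in thymic tissue of mice, in libraries of poly(A) RNA read on an Illumina HiSeq instrument. The set held 32 genes of the 24478 gene symbols in the deposited tables. It covers the cyclins and CDK1 that drive entry into mitosis, the mitotic kinases, the spindle checkpoint, the centromere and kinetochore, the spindle motors, and the proteolysis machinery that ends mitosis. A gene was taken by its symbol, and where a symbol had several of the 36141 transcript rows, the row with the most reads over the 12 libraries stood for it. There were 4 groups of 3 libraries. T58A lymphomas were thymic lymphomas labelled as T lymphocytes that express only ectopic MYC with the T58A change. S62A lymphomas were thymic lymphomas labelled as T lymphocytes that express only ectopic MYC with the S62A change. Splenomegaly masses were thymic masses from S62A animals with splenomegaly, and their label names B as well as T lymphocytes, and ectopic S62A MYC beside the endogenous MYC. Controls were thymic tissue, labelled T lymphocytes, in which MYC is endogenous only. The disease is described as spontaneous. The labels give no promoter or driver for the ectopic MYC, and no strain, age or pooling of the animals. Nor do they state whether each library is from a different animal; the p-values therefore cover the spread among the libraries sequenced, some of which can be technical.

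Mitosis is driven by cyclin-dependent kinase 1 (CDK1), which is active only when bound to an A- or B-type cyclin. Most genes of this set are transcribed periodically: the MuvB complex represses them in resting cells as part of the DREAM complex, and with B-MYB and FOXM1 it activates them in late S and G2 phase. The elements best known from their promoters are the CCAAT box, which NF-Y binds, and the cell cycle genes homology region (CHR), which MuvB binds. MYC is a transcription factor that binds E-boxes and is known for driving lymphocytes into the cycle. In the thymus, double-negative and early double-positive thymocytes divide rapidly, so a normal thymus is itself a tissue with many dividing cells.

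Total counts per library lay between 16830893 and 18376634 reads in T58A lymphomas, 14172274 and 16258508 in S62A lymphomas, 9577373 and 19905444 in splenomegaly masses and 17339406 and 22437969 in controls. The Myc row averaged 143 ± 13.4 CPM in T58A lymphomas, 173 ± 26.1 CPM in S62A lymphomas, 91.9 ± 7.89 CPM in splenomegaly masses and 82.8 ± 2.82 CPM in controls (SD, n = 3 each). CPM are counts scaled to a common, normalized library size, and the Myc row does not tell the ectopic from the endogenous transcript. The summed level of 8 T cell markers was 2555 to 3740.2 CPM in T58A lymphomas, 2232 to 3686 CPM in S62A lymphomas, 771 to 879 CPM in splenomegaly masses and 7951 to 8053 CPM in controls. The 6 B cell markers summed to 26.7 to 333 CPM in T58A lymphomas, 25.6 to 41.7 CPM in S62A lymphomas, 1803 to 2429.6 CPM in splenomegaly masses and 61.4 to 64.7 CPM in controls. The 6 macrophage markers summed to 1612 to 2513 CPM in T58A lymphomas, 1400.4 to 2680.4 CPM in S62A lymphomas, 3052 to 4560.1 CPM in splenomegaly masses and 381 to 458 CPM in controls. The summed T cell level was thus lowest, and the summed B cell and macrophage levels highest, in the splenomegaly masses, but single markers did not all follow the sums. Cd2 averaged 149 ± 7.24 CPM in splenomegaly masses, 61.1 ± 48.1 CPM in T58A lymphomas and 39.8 ± 29.0 CPM in S62A lymphomas. Itgam averaged 79.4 ± 28.3 CPM in splenomegaly masses, 579 ± 286 CPM in T58A lymphomas and 948 ± 540.4 CPM in S62A lymphomas (SD, n = 3 each). Both were chosen after their values were seen. The 7 thymic epithelium markers summed to 103 to 142 CPM in T58A lymphomas, 13.8 to 34.9 CPM in S62A lymphomas, 67.5 to 75.1 CPM in splenomegaly masses and 2229 to 2441 CPM in controls. No B cell, T cell, macrophage or thymic epithelium marker was at 0 in every library of a group, while Ptcra was at 0 in T58A lymphomas and Elane and Ly6g were at 0 in S62A lymphomas.

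All 32 genes passed the filter on low counts and were tested among 15606 genes. In T58A lymphomas against controls, 1 gene rose and 5 fell at an adjusted p under 0.05 (edgeR's quasi-likelihood test), where 18.8% of all genes tested rose and 17.4% fell. In S62A lymphomas against controls, 3 rose and 3 fell, where 21.9% of all genes rose and 22.2% fell. In this fit none of these shares of the 32 genes was above that of all genes. The falls in T58A lymphomas were 9 with DESeq2, where 3168 of all genes fell, and 9 with limma-voom, where 3556 did. With these 2 methods the share of the 32 genes that fell was above that of all genes. It was also above it with RLE factors (2824 of all genes fell), library size only (2834) and limma on log2(FPKM + 0.5) (3340). Aurka and Bub1b joined the 5 falls in each of these fits. With the 2 groups fitted alone 11 of the 32 fell, and 3271 of all genes. In splenomegaly masses against controls none rose and 28 fell, where 22.9% of all genes rose and 26.3% fell. The median log2 fold change over the 32 genes against controls was -0.23 in T58A lymphomas, where all genes tested had 0.01. It was -0.02 in S62A lymphomas, where all genes had 0.00, and -0.93 in splenomegaly masses, where all genes had -0.08. These comparisons share the control libraries. In bulk tissue, fewer cells of a type and less RNA per cell cannot be told apart.

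**Figure D1:**
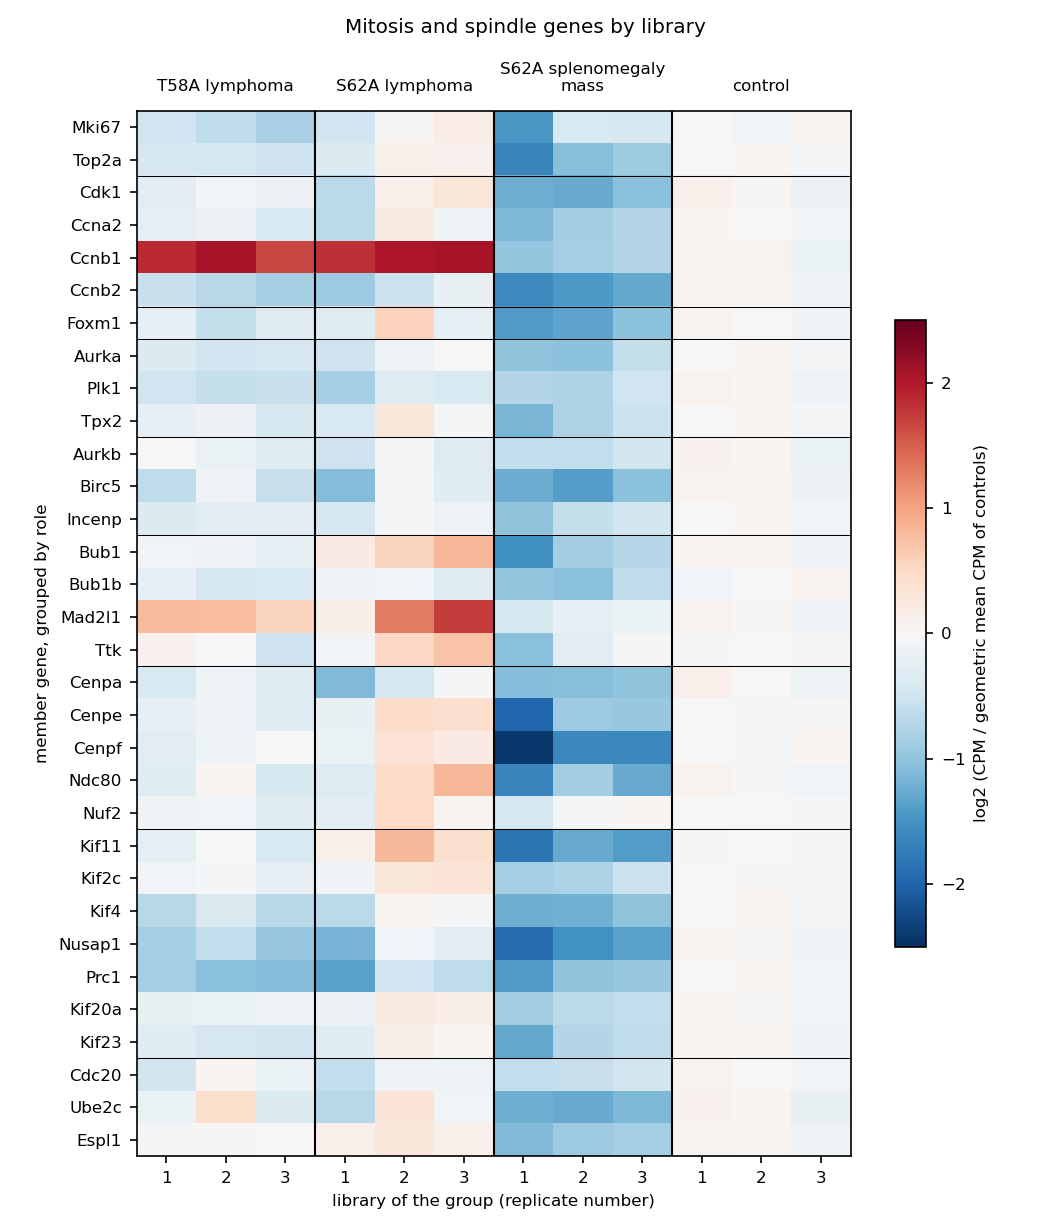
Heat map of the 32 mitosis and spindle genes (down the page, by role) in the 12 libraries (across, T58A lymphomas, S62A lymphomas, splenomegaly masses, then controls), coloured by log2 of the CPM over the geometric mean of the 3 controls. Ccnb1 is high in all 6 lymphoma libraries, and most genes are low in the 3 splenomegaly masses.

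The libraries of a group were not alike for these genes. Over the 32 genes, the median coefficient of variation was 8.93% in T58A lymphomas, 23.1% in S62A lymphomas, 14.9% in splenomegaly masses and 5.29% in controls. S62A lymphoma 1 was the lowest of its group for 30 genes, and splenomegaly mass 1 for 26. The 32 genes together took 0.482% to 0.543% of the reads in T58A lymphomas, 0.450% to 0.691% in S62A lymphomas, 0.236% to 0.339% in splenomegaly masses and 0.596% to 0.645% in controls. Controls 1 and 2 were the most alike pair of any group, with a chi-square of 2.68 per degree of freedom over all genes, against 18.5 to 111 in the other pairs within groups.

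The choice of the genes did not use sequence, and their promoters are shown first because most of them hold the same motifs. RefSeq windows of GRCm38.p6, from 250 bases before to 50 bases after the annotated start, were found for 26 of the 32 genes; Tpx2, Kif20a, Ccna2, Foxm1, Aurkb and Incenp had no entry. On either strand, CCAAT was present in 20 of the 26 windows (76.9%), against 37.4% of the 32851 windows in the RefSeq table and 42.1% of 11746 other tested genes. TTTGAA, the common form of the CHR, was present in 19 (73.1%), against 17.9% of windows and 14.6% of other tested genes. Both stood together in 17 (65.4%), against 6.95% and 6.90%. TTTAAA, the other form of the CHR, was present in 9 (34.6%), against 13.2% and 11.2%. The E-box CACGTG was present in 2 windows (7.69%), those of Ttk and Espl1, against 7.15% and 10.9%. The windows of Nuf2, Nusap1 and Mad2l1 held none of the 4 motifs. A match of letters describes the window and is not a binding site.

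The 120 bases before the start are printed for 7 genes on which the results turn: Ccnb1 and Mad2l1, which rose, Ccnb2 and Prc1, which fell in both lymphomas, Cdk1 as the partner of the cyclins, and Kif11 and Ube2c as genes low in splenomegaly masses. Capitals mark the CCAAT box and both forms of the CHR on either strand. On the other strand CCAAT reads ATTGG. The common CHR form reads TTCAAA there. Each sequence runs 5′ to 3′ toward the gene. They lie at chr13:100786487-100786606 (minus strand) for Ccnb1, chr9:70421555-70421674 (minus strand) for Ccnb2, chr10:69352913-69353032 (minus strand) for Cdk1, chr19:37376262-37376381 (plus strand) for Kif11, chr2:164769809-164769928 (plus strand) for Ube2c, chr7:80294356-80294475 (plus strand) for Prc1 and chr6:66535101-66535220 (plus strand) for Mad2l1, all in GRCm38.p6.
Ccnb1: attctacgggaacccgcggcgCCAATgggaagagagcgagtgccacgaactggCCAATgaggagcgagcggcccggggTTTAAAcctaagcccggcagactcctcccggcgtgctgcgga
Ccnb2: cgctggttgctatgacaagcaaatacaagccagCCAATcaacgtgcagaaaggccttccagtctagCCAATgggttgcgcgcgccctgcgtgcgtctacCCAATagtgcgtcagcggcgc
Cdk1: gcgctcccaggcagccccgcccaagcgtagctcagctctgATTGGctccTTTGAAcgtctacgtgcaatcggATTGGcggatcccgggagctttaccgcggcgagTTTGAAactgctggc
Kif11: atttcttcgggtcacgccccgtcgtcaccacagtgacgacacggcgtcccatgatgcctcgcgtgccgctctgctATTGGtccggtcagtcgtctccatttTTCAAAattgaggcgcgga
Ube2c: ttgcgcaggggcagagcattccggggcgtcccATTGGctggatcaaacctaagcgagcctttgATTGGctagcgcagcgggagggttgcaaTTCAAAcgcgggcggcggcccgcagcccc
Prc1: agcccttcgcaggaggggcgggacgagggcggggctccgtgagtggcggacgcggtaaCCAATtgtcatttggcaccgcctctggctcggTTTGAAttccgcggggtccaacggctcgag
Mad2l1: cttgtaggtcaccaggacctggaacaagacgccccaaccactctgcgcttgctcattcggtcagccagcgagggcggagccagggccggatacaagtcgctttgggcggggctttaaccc

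The Ccnb1 stretch held CCAAT from 99 and from 67 bases before the start, TTTAAA from 42 bases before it, and no TTTGAA anywhere in its window. The Ccnb2 stretch held CCAAT from 87, 54 and 21 bases before the start, and its window held TTTGAA from 167 bases before and 5 bases after the start. The Cdk1 stretch held ATTGG from 80 and 48 bases and TTTGAA from 71 and 15 bases before the start. In the Prc1 stretch CCAAT began 62 and TTTGAA 30 bases before the start. The Mad2l1 stretch has no capitals. Within the 26 genes, the 19 with TTTGAA had a median log2 fold change of -0.26 in T58A lymphomas, -0.06 in the S62A lymphomas and -1.05 in splenomegaly masses against controls, and the 7 without it -0.15 in T58A lymphomas, 0.26 in the S62A lymphomas and -1.002 in splenomegaly masses.

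**Figure D2:**
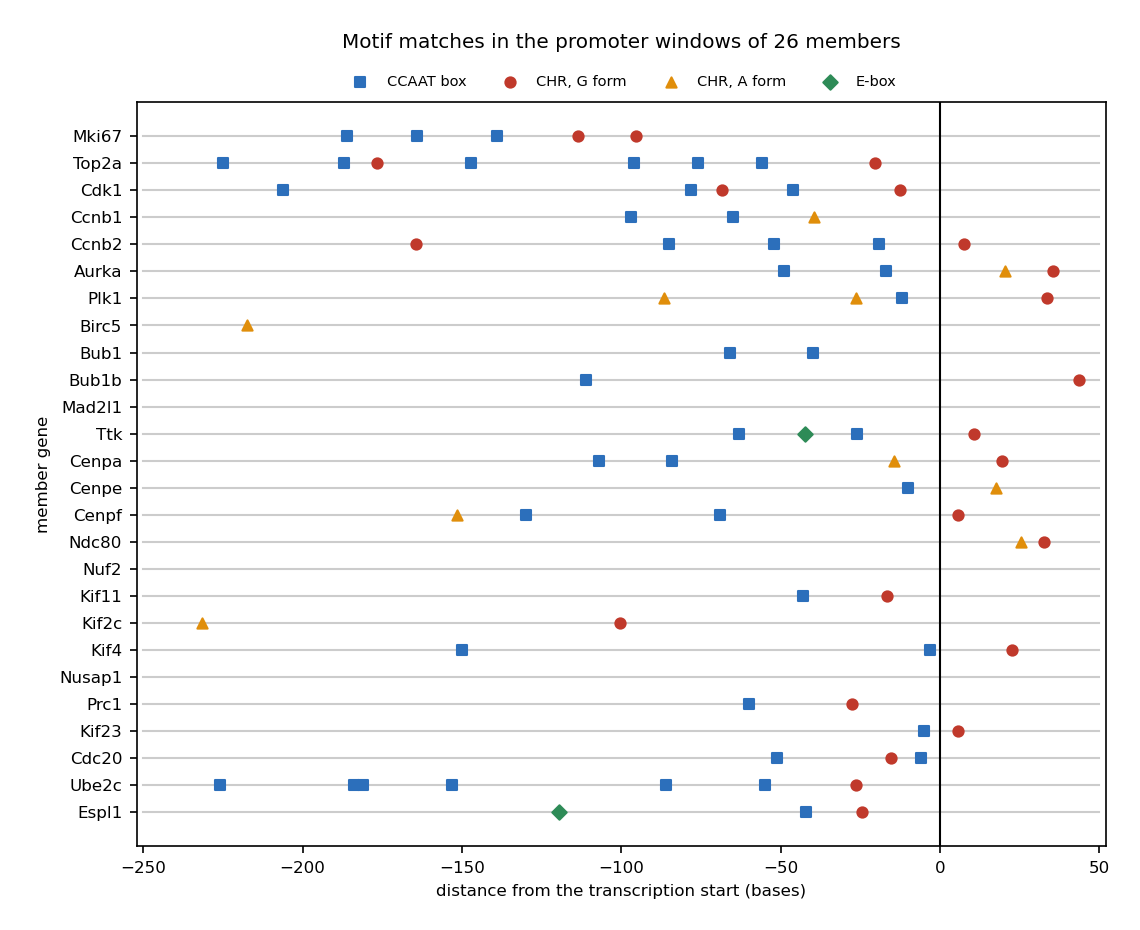
Map of motif centres (horizontal axis, distance from the annotated start in bases) in the promoter windows of 26 mitosis and spindle genes (1 line each). CCAAT boxes and the TTTGAA form of the CHR mark most lines, the line of Ccnb1 has TTTAAA and no TTTGAA, and the lines of Nuf2, Nusap1 and Mad2l1 are empty.

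The largest rise among the 32 genes was that of Ccnb1, which encodes cyclin B1, the cyclin that activates CDK1 at entry into mitosis. Ccnb1 had 269, 308 and 236 CPM in T58A lymphomas, 261, 298 and 306 CPM in S62A lymphomas, 37.8, 40.8 and 44.6 CPM in splenomegaly masses and 77.9, 78.4 and 65.6 CPM in controls. Every lymphoma library lay above every control, and every splenomegaly mass lay under every control. Ccnb1 was 3.66-fold higher in T58A lymphomas than in controls (log2 fold change 1.87 ± 0.13, adjusted p = 6.34e-06) and 3.89-fold higher in S62A lymphomas (1.96 ± 0.14, adjusted p = 3.99e-06). In splenomegaly masses it fell by 0.85 ± 0.13 on the log2 scale against controls (adjusted p = 0.000387). It passed the threshold under every alternative tried in both lymphoma comparisons.

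Ccnb2 encodes cyclin B2, the other B-type cyclin of dividing somatic cells, and moved the other way in both lymphomas. In splenomegaly masses it fell, as Ccnb1 did. Ccnb2 had 117, 106 and 96.7 CPM in T58A lymphomas, 91.6, 119 and 153 CPM in S62A lymphomas, 57.1, 63.4 and 71.4 CPM in splenomegaly masses and 180.3, 180.0 and 158 CPM in controls. All lymphomas and masses were under all controls. The log2 fold change was -0.70 ± 0.17, adjusted p = 0.00906 in T58A lymphomas, -0.51 ± 0.17, adjusted p = 0.0307 in S62A lymphomas and -1.43 ± 0.17, adjusted p = 7.82e-05 in splenomegaly masses. The fall in S62A lymphomas lost its call when S62A lymphoma 1 (adjusted p = 0.0903), S62A lymphoma 2 (0.0734), control 1 (0.0881) or control 2 (0.0879) was left out.

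Cdk1, the kinase that both cyclins activate, had 183, 212 and 203 CPM in T58A lymphomas, 141, 245 and 278 CPM in S62A lymphomas, 96.3, 93.8 and 109 CPM in splenomegaly masses and 243, 229 and 201 CPM in controls. The lymphomas overlapped the controls, and the masses lay under every other library. The log2 fold change was -0.17, adjusted p = 0.544 in T58A lymphomas and -0.02, adjusted p = 0.944 in S62A lymphomas, and Cdk1 fell by 1.17 ± 0.21 in splenomegaly masses (adjusted p = 0.000909). Ccna2 encodes cyclin A2, which acts in S phase and early mitosis, and had 322, 345 and 295 CPM in T58A lymphomas, 241, 445 and 356 CPM in S62A lymphomas, 175, 210.2 and 229 CPM in splenomegaly masses and 396, 388 and 367 CPM in controls. It was not called in either lymphoma (log2 fold change -0.26, adjusted p = 0.312 in T58A and -0.14, adjusted p = 0.567 in S62A) and fell in splenomegaly masses (-0.90, adjusted p = 0.0027).

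Levels of different genes were compared per length, as FPKM (fragments scaled to transcript length and library depth). The ratio of Ccnb1 to Ccnb2 in FPKM was 1.56 ± 0.192 in T58A lymphomas, 1.497 ± 0.258 in S62A lymphomas, 0.393 ± 0.0114 in splenomegaly masses and 0.261 ± 0.00665 in controls (SD, n = 3 each). Cyclin B1 RNA was thus above cyclin B2 RNA in every lymphoma library and under it in every mass and control. The ratio of Ccnb1 to Cdk1 was 1.76 ± 0.221 in T58A lymphomas, 1.79 ± 0.523 in S62A lymphomas, 0.532 ± 0.0277 in splenomegaly masses and 0.426 ± 0.0148 in controls. By mean FPKM, Ccnb1 ranked 3rd of the 32 genes in T58A lymphomas (140.4 ± 18.3 FPKM) and 4th in S62A lymphomas (142 ± 12.8), but 23rd in splenomegaly masses (20.1 ± 1.75) and 24th in controls (39.1 ± 4.18).

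The Ccnb1 row is the transcript NM_172301 at chr13:101548694-101556441 on the minus strand in mm9, the build named in the submitters' processing notes. Mouse has processed pseudogenes of cyclin B1. Each gene was searched by its longest protein-coding GENCODE transcript, which need not equal the counted RefSeq row. Of the 50-base stretches in that transcript of Ccnb1 (2489 bases), 42.1% also occurred in transcripts of other genes. The 5 genes that held 1% or more of them were all pseudogenes. Ccnb1-ps shared 34.1%, Gm12856 24.2% and Gm8416 19.9%. The 42.1% was the highest such share of the 32 genes. How reads that map to several places were counted is not given in the sources used here, so the Ccnb1 count is uncertain to that extent. Most shared stretches of Kif20a (31.2% in all) were in transcripts of Cdc23, those of Prc1 (26.6%) in Rccd1, those of Ube2c (17.8%) in Tnnc2, those of Kif4 (16.2%) in Pdzd11 and those of Ccna2 (15.9%) in Exosc9, which are not pseudogenes. The search covered both strands. Kif20a overlaps Cdc23 by 1595 bases and Ccna2 overlaps Exosc9 by 863 bases, on opposite strands. Stretches shared in such an overlap need not lie at a second place in the genome. Cdc20 (11.6%) and Plk1 (10.9%) also share most such stretches with pseudogenes or unclassified transcripts, 11 genes share none, and the others share 5.34% or less.

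The genes within 60 kb of Ccnb1 were read as its neighbourhood. Cenph, a kinetochore gene 2839 bases away on the same strand, averaged 47.6 ± 2.25 CPM in T58A lymphomas, 46.5 ± 5.09 CPM in S62A lymphomas, 16.7 ± 4.64 CPM in splenomegaly masses and 23.4 ± 1.39 CPM in controls. It rose in both lymphomas (log2 fold change 1.02 ± 0.19, adjusted p = 0.00188 in T58A; 0.99 ± 0.19, adjusted p = 0.00182 in S62A). Slc30a5, a zinc transporter gene 16161 bases away, was higher in all 3 groups than in controls, with log2 fold changes of 1.39 in T58A lymphomas, 1.33 in the S62A lymphomas and 1.28 in splenomegaly masses. Cdk7, which encodes the CDK-activating kinase and lies 47796 bases away, rose by 0.54 in T58A lymphomas and 0.66 in S62A lymphomas, and its value in splenomegaly masses was -0.31 (adjusted p = 0.0676). Over the 560 tested genes of chromosome 13 the median log2 fold change was 0.08 in T58A lymphomas, 0.15 in the S62A lymphomas and -0.12 in splenomegaly masses.

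**Figure D3:**
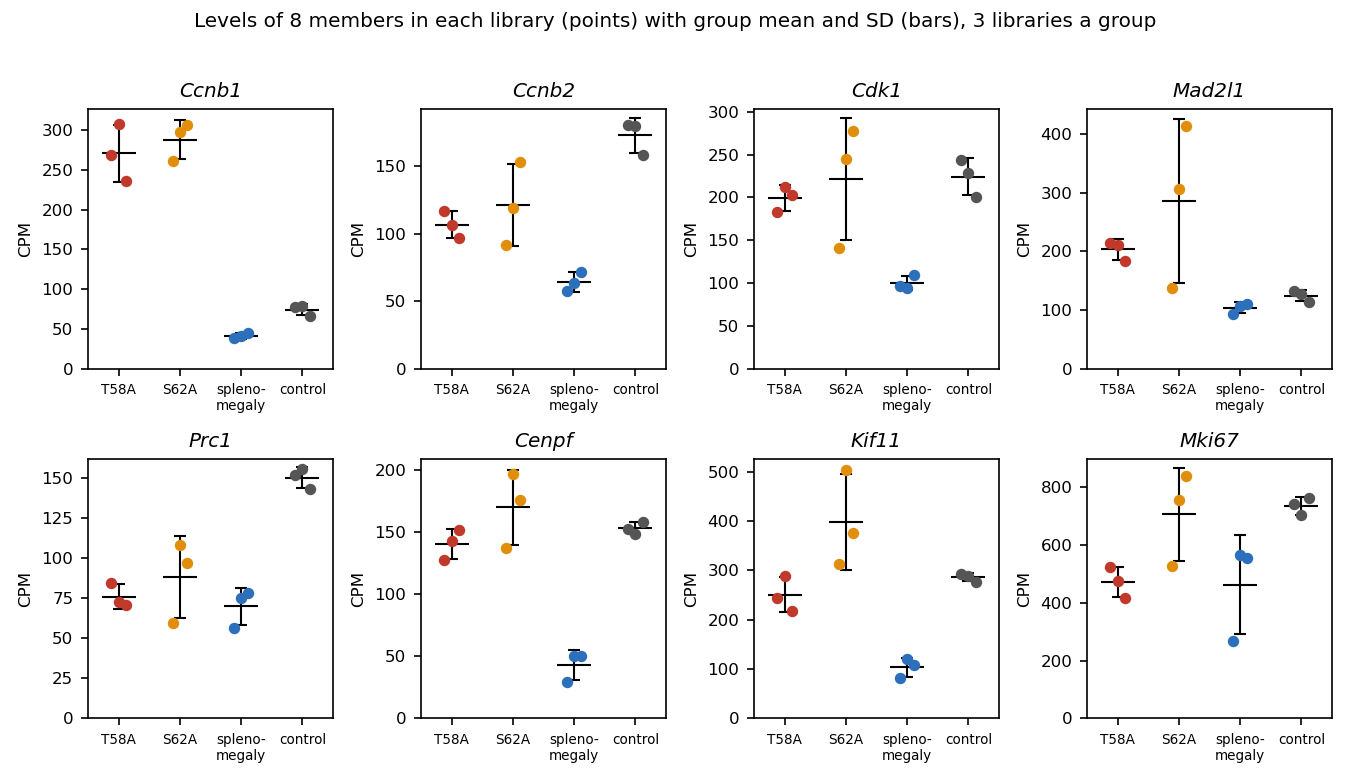
Level (vertical axis, CPM) of 8 mitosis genes in each library (points) of the 4 groups (horizontal axis), with the group mean and SD (bars, n = 3 each). Ccnb1 separates all lymphomas (236 to 308 CPM) from all controls (65.6 to 78.4 CPM), while the 3 splenomegaly masses are the lowest libraries for Cdk1, Cenpf and Kif11.

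Foxm1 encodes the transcription factor that activates many of these genes in G2 phase. It had 157, 119 and 145 CPM in T58A lymphomas, 147, 269 and 154 CPM in S62A lymphomas, 67.97, 72.3 and 88.5 CPM in splenomegaly masses and 189, 182 and 169.7 CPM in controls. S62A lymphoma 2 was the highest library, and the masses lay under all others. Foxm1 fell in splenomegaly masses (log2 fold change -1.24 ± 0.22, adjusted p = 0.000853) and did not pass the threshold in T58A (-0.36, adjusted p = 0.207) or S62A lymphomas (0.07, adjusted p = 0.806).

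Plk1 encodes polo-like kinase 1, which acts from mitotic entry to cytokinesis. It had 75.1, 70.3 and 72.02 CPM in T58A lymphomas, 60.1, 85.4 and 81.8 CPM in S62A lymphomas, 64.1, 62.6 and 75.6 CPM in splenomegaly masses and 113, 109 and 96.9 CPM in controls. All lymphomas and masses lay under all controls and overlapped each other. The log2 fold change was -0.55 ± 0.14, adjusted p = 0.0113 in T58A lymphomas, -0.49 ± 0.14, adjusted p = 0.0166 in S62A lymphomas and -0.66 ± 0.14, adjusted p = 0.00302 in splenomegaly masses. In S62A lymphomas the call was lost without control 1 (adjusted p = 0.0631) or control 2 (0.0564).

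Aurka encodes aurora A, the centrosomal kinase that activates PLK1, and Tpx2 its activator on the spindle. Aurka had 85.4, 78.3 and 81.5 CPM in T58A lymphomas, 75.7, 99.4 and 110.2 CPM in S62A lymphomas, 54.5, 53.5 and 72.3 CPM in splenomegaly masses and 107, 113 and 106 CPM in controls. It was under the controls in all T58A lymphomas and all masses, and the change was called in the masses (log2 fold change -0.86, adjusted p = 0.00103) and missed the threshold in T58A (-0.41, adjusted p = 0.0559) and S62A lymphomas (-0.19, adjusted p = 0.327). Tpx2 likewise fell in splenomegaly masses (-0.79, adjusted p = 0.00426) and was not called in T58A (-0.25, adjusted p = 0.298) or S62A lymphomas (-0.02, adjusted p = 0.925).

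The chromosomal passenger complex corrects wrong attachments of chromosomes to the spindle. Its kinase aurora B (Aurkb), its scaffold INCENP (Incenp) and survivin (Birc5) were measured, and none of these 3 genes was called in either lymphoma. Without S62A lymphoma 2, Aurkb was called lower in S62A lymphomas (log2 fold change -0.41, adjusted p = 0.0384). With all libraries it was also called lower there with limma on log2(FPKM + 0.5). Birc5 had 138, 202 and 145 CPM in T58A lymphomas, 101, 209 and 174 CPM in S62A lymphomas, 90.9, 83.4 and 105 CPM in splenomegaly masses and 227, 225 and 195 CPM in controls. The lymphomas overlapped the controls and all masses were under the controls. These 3 genes fell in splenomegaly masses, by 1.21 ± 0.24 for Birc5 (adjusted p = 0.00178), 0.67 ± 0.15 for Incenp (adjusted p = 0.00312) and 0.57 ± 0.14 for Aurkb (adjusted p = 0.00666) on the log2 scale.

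The spindle checkpoint holds the anaphase-promoting complex inactive until every kinetochore is attached. Mad2l1 encodes MAD2, which is built into the inhibitor of that complex. It had 215, 212 and 184 CPM in T58A lymphomas, 138, 306 and 415 CPM in S62A lymphomas, 93.4, 107 and 111 CPM in splenomegaly masses and 132, 127 and 114 CPM in controls. All lymphomas lay above all controls, with a wide spread in S62A lymphomas, and the masses lay just under the controls. Mad2l1 was 2.31-fold higher in S62A lymphomas than in controls (log2 fold change 1.21 ± 0.29, adjusted p = 0.00705). In T58A lymphomas the value of 0.71 ± 0.29, adjusted p = 0.0776, missed the threshold, and in splenomegaly masses it was -0.26, adjusted p = 0.484. With the 2 groups fitted alone or with limma-voom, Mad2l1 was called higher in T58A lymphomas. In FPKM, the ratio of Mad2l1 to Bub1b was 2.47 ± 0.200 in T58A lymphomas, 3.17 ± 1.80 in S62A lymphomas, 1.85 ± 0.245 in splenomegaly masses and 1.20 ± 0.1498 in controls.

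Bub1 encodes a checkpoint kinase that marks the inner centromere. It had 75.7, 74.2 and 68.5 CPM in T58A lymphomas, 90.7, 116 and 141 CPM in S62A lymphomas, 27.2, 43.01 and 48.6 CPM in splenomegaly masses and 81.96, 81.8 and 73.8 CPM in controls. The S62A lymphomas were the highest libraries and the masses the lowest, and the T58A lymphomas overlapped the controls. Bub1 rose in S62A lymphomas (log2 fold change 0.55 ± 0.21, adjusted p = 0.0476), a call at the edge of the threshold. It was lost without control 1, 2 or 3 or without S62A lymphoma 2 or 3 (adjusted p = 0.0899 to 0.163). Bub1 fell in splenomegaly masses (-1.002 ± 0.21, adjusted p = 0.00234).

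Bub1b encodes BUBR1, which binds MAD2 and CDC20 in the inhibitor. Bub1b had 165, 144 and 146 CPM in T58A lymphomas, 179.9, 181 and 152 CPM in S62A lymphomas, 97.3, 92.3 and 123 CPM in splenomegaly masses and 182, 188 and 201 CPM in controls. It fell in splenomegaly masses (log2 fold change -0.87 ± 0.13, adjusted p = 0.000296) and was not called in T58A (-0.33, adjusted p = 0.0669) or S62A lymphomas (-0.15, adjusted p = 0.358). Ttk, the gene of the kinase MPS1 that starts checkpoint signalling, had 35.4, 33.1 and 23.01 CPM in T58A lymphomas, 31.6, 46.99 and 54.01 CPM in S62A lymphomas, 15.97, 27.3 and 33.4 CPM in splenomegaly masses and 32.3, 32.7 and 33.7 CPM in controls. Its groups overlapped, and no comparison with controls called it (-0.37, adjusted p = 0.295 in splenomegaly masses).

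The centromere histone CENP-A (Cenpa), the kinetochore motor CENP-E (Cenpe), the large kinetochore protein CENP-F (Cenpf) and 2 subunits of the microtubule-binding NDC80 complex (Ndc80 and Nuf2) made up the kinetochore group. None of the 5 was called in either lymphoma against controls, with log2 fold changes from -0.26 to -0.12 in T58A lymphomas and -0.47 to 0.40 in S62A lymphomas. Without S62A lymphoma 3, Cenpa was called lower in S62A lymphomas (-0.74, adjusted p = 0.00877). With all libraries it was also called lower there with library size only, limma-voom and limma on log2(FPKM + 0.5). In splenomegaly masses 4 of the 5 fell. Cenpf had 127, 143 and 152 CPM in T58A lymphomas, 137, 197 and 176 CPM in S62A lymphomas, 28.9, 50.3 and 49.9 CPM in splenomegaly masses and 153, 149 and 158 CPM in controls. Every mass was far under every other library, and the log2 fold change of -1.84 ± 0.21, adjusted p = 4.46e-05, or 3.57-fold, was the largest fall of the 32 genes in this comparison.

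Cenpf and the marker of cycling cells Mki67 did not move in step. The ratio of Cenpf to Mki67 in FPKM was 0.277 ± 0.0550 in T58A lymphomas, 0.223 ± 0.0265 in S62A lymphomas, 0.0873 ± 0.0100 in splenomegaly masses and 0.190 ± 0.00258 in controls. By mean FPKM, Cenpf was the lowest of the 32 genes in every group, at 13.9 ± 1.38 FPKM in T58A lymphomas, 15.99 ± 2.97 FPKM in S62A lymphomas, 4.02 ± 1.19 FPKM in splenomegaly masses and 15.4 ± 0.339 FPKM in controls.

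Ndc80 had 50.2, 65.3 and 46.8 CPM in T58A lymphomas, 49.3, 84.8 and 111 CPM in S62A lymphomas, 19.8, 33.96 and 25.9 CPM in splenomegaly masses and 66.2, 61.05 and 58.8 CPM in controls. Its S62A lymphomas straddled the controls and its masses lay under all other libraries, and it fell in splenomegaly masses (log2 fold change -1.23 ± 0.28, adjusted p = 0.00385). Nuf2, whose protein pairs with NDC80 in the same complex, had 56.1, 57.4 and 48.6 CPM in T58A lymphomas, 49.3, 85.1 and 63.5 CPM in S62A lymphomas, 44.3, 57.9 and 61.95 CPM in splenomegaly masses and 60.5, 60.8 and 59.1 CPM in controls. The masses overlapped the controls, and the value of -0.14, adjusted p = 0.574, was not called. Cenpe (-1.20, adjusted p = 0.00251) and Cenpa (-1.05, adjusted p = 0.00194) fell in splenomegaly masses.

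Among the motors and bundling proteins of the spindle, 3 of 7 fell in T58A lymphomas, 1 of 7 in S62A lymphomas and 7 of 7 in splenomegaly masses. Prc1 encodes the protein that cross-links antiparallel microtubules of the central spindle. It had 84.6, 72.4 and 70.5 CPM in T58A lymphomas, 59.4, 108 and 96.5 CPM in S62A lymphomas, 56.5, 74.7 and 78.2 CPM in splenomegaly masses and 151, 156 and 143 CPM in controls. All controls lay above all other libraries, and lymphomas and masses overlapped. Prc1 fell in T58A lymphomas (log2 fold change -0.98 ± 0.20, adjusted p = 0.00348), S62A lymphomas (-0.77 ± 0.20, adjusted p = 0.01) and splenomegaly masses (-1.10 ± 0.20, adjusted p = 0.00112).

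Nusap1 encodes a microtubule-binding protein of the spindle around chromosomes. It had 127, 150.1 and 118 CPM in T58A lymphomas, 102, 218 and 191 CPM in S62A lymphomas, 61.4, 79.8 and 90.01 CPM in splenomegaly masses and 238, 233 and 215 CPM in controls. All T58A lymphomas and masses were under the controls, and S62A lymphoma 2 reached them. Nusap1 fell in T58A lymphomas (log2 fold change -0.80 ± 0.24, adjusted p = 0.024) and splenomegaly masses (-1.57 ± 0.25, adjusted p = 0.000395) but was not called in S62A lymphomas (-0.43, adjusted p = 0.171).

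Kif4 encodes a chromosome-bound kinesin that works with PRC1. It had 52.7, 66.4 and 52.5 CPM in T58A lymphomas, 52.9, 90.8 and 81.7 CPM in S62A lymphomas, 36.3, 36.7 and 42.03 CPM in splenomegaly masses and 84.1, 87.3 and 83.4 CPM in controls. The masses were lowest, the T58A lymphomas lay under the controls, and the S62A lymphomas reached across them. Kif4 fell in T58A lymphomas (log2 fold change -0.57 ± 0.18, adjusted p = 0.0301) and in splenomegaly masses (-1.15 ± 0.18, adjusted p = 0.000475). In T58A lymphomas, Nusap1 and Kif4 lost their calls without control 1 (adjusted p = 0.0684 and 0.0728), control 2 (0.0649 and 0.0859), T58A lymphoma 1 (0.0658 and 0.0911) or T58A lymphoma 3 (0.0754 and 0.0906), and Kif4 also without control 3 (0.0683).

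Kif11 encodes Eg5, the motor that pushes the spindle poles apart. It had 244, 289 and 219 CPM in T58A lymphomas, 313, 504 and 377 CPM in S62A lymphomas, 81.4, 119.9 and 108 CPM in splenomegaly masses and 293, 288 and 277 CPM in controls. The S62A lymphomas were the highest and the masses the lowest libraries. Its fall in splenomegaly masses was 2.77-fold (log2 fold change -1.47 ± 0.19, adjusted p = 0.000131), while its value in S62A lymphomas, 0.48 ± 0.19, adjusted p = 0.0614, missed the threshold. With limma-voom Kif11 was called higher in S62A lymphomas. The depolymerase gene Kif2c (-0.73, adjusted p = 0.00134) and the central spindle kinesins Kif20a (-0.72, adjusted p = 0.000506) and Kif23 (-0.86, adjusted p = 0.0018) fell in splenomegaly masses and were called in neither lymphoma. The Kif20a row overlaps Cdc23 on the opposite strand by 1595 bases, and whether counting used strand is not given in the sources used here.

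The anaphase-promoting complex (APC/C) destroys cyclin B and securin to end mitosis. Ube2c encodes its ubiquitin-conjugating enzyme and Cdc20 its activator, and Espl1 encodes separase, the protease that then cuts cohesin. Ube2c had 160.3, 246 and 142 CPM in T58A lymphomas, 111, 225 and 172 CPM in S62A lymphomas, 77.8, 75.7 and 82.6 CPM in splenomegaly masses and 194, 190.1 and 159 CPM in controls. The lymphomas spread around the controls and the masses lay under all other libraries. It fell in splenomegaly masses (log2 fold change -1.20 ± 0.25, adjusted p = 0.00246), with values near 0 in T58A (0.01, adjusted p = 0.972) and S62A lymphomas (-0.10, adjusted p = 0.773). In FPKM it ranked first of the 32 genes in every group, at 261 ± 79.2 in T58A lymphomas, 231 ± 79.5 in S62A lymphomas, 106 ± 3.78 in splenomegaly masses and 264 ± 30.1 in controls.

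Espl1 had 85.1, 89.3 and 87.2 CPM in T58A lymphomas, 96.02, 106 and 95.95 CPM in S62A lymphomas, 40.9, 46.8 and 48.3 CPM in splenomegaly masses and 92.1, 91.1 and 79.9 CPM in controls. The masses were apart from every other library, and it fell there by 0.95 ± 0.11 on the log2 scale (adjusted p = 4.86e-05). Cdc20 had 96.2, 137 and 118 CPM in T58A lymphomas, 85.7, 121 and 121 CPM in S62A lymphomas, 86.3, 87.9 and 96.5 CPM in splenomegaly masses and 140.2, 131 and 125 CPM in controls, and fell least of the 28 genes called in splenomegaly masses (log2 fold change -0.55 ± 0.16, adjusted p = 0.0148). That call was lost without control 1 (adjusted p = 0.0526) or splenomegaly mass 1 (0.0645). Neither gene was called in a lymphoma.

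Mki67 encodes Ki-67, the antigen used to stain cycling cells, and Top2a encodes the topoisomerase that untangles sister chromatids. Mki67 had 523, 476 and 417 CPM in T58A lymphomas, 527, 755 and 838 CPM in S62A lymphomas, 267, 567 and 557 CPM in splenomegaly masses and 741, 704 and 763 CPM in controls. All T58A lymphomas and all masses lay under the controls, and splenomegaly mass 1 was far under the other masses. No comparison with controls called it, with log2 fold changes of -0.64, adjusted p = 0.074 in T58A lymphomas, -0.06, adjusted p = 0.873 in S62A lymphomas and -0.67, adjusted p = 0.0514 in splenomegaly masses. Without splenomegaly mass 2 the last of these was called (-0.84, adjusted p = 0.0408). Top2a had 621, 603 and 573 CPM in T58A lymphomas, 643, 894 and 886 CPM in S62A lymphomas, 261, 391 and 441 CPM in splenomegaly masses and 813, 842 and 799 CPM in controls, and fell in splenomegaly masses (log2 fold change -1.17 ± 0.19, adjusted p = 0.000489) with no call in T58A (-0.45, adjusted p = 0.0806) or S62A lymphomas (-0.02, adjusted p = 0.944).

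**Figure D4:**
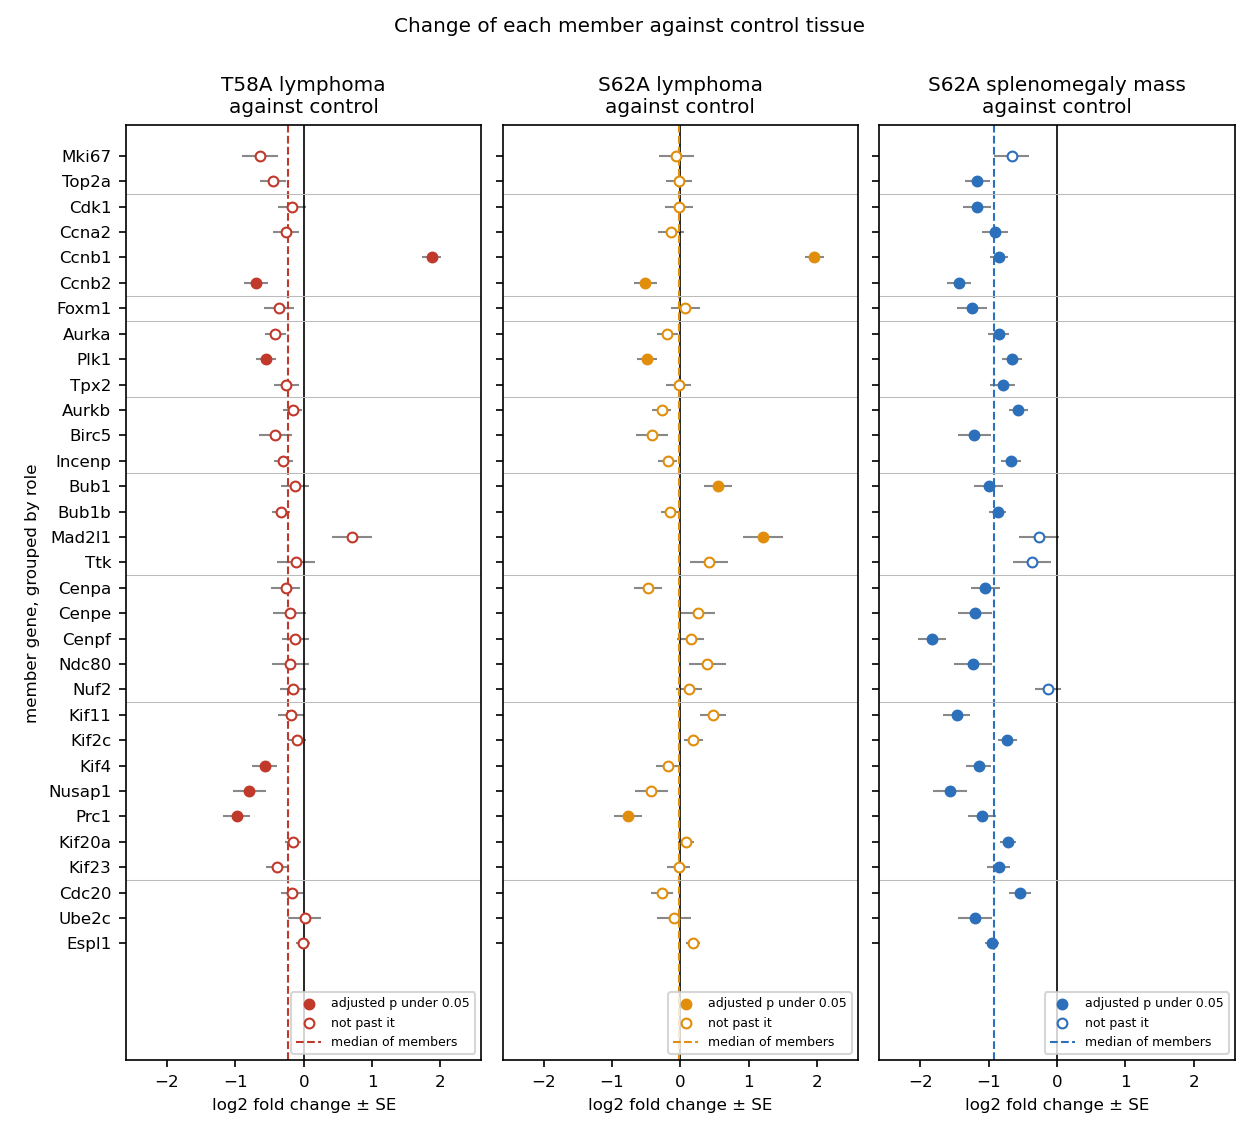
Log2 fold change against controls (horizontal axis, with standard error bars) of the 32 genes (down the page, by role) in T58A lymphomas, S62A lymphomas and splenomegaly masses. Filled points passed an adjusted p under 0.05 and the dashed line is the median over the 32 genes (-0.23, -0.02 and -0.93). Ccnb1 stands far right in both lymphomas and left of 0 in the masses.

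In splenomegaly masses the 28 genes that fell covered all 9 roles, and the 4 that were not called were Mki67, Ttk, Mad2l1 and Nuf2. The log2 fold changes of the 28 ran from -1.84 for Cenpf to -0.55 for Cdc20. All 32 values were below 0, where the median over all genes tested was -0.08. Leaving out any 1 library left 27 to 29 calls, 27 without splenomegaly mass 1. Cell type markers moved with the same comparison. Of 8 T cell markers 7 fell, and of 8 double-positive thymocyte markers 8 fell, to a summed 308 to 335 CPM against 9189 to 10519 CPM in controls. Of 6 B cell markers all 6 rose, as did all 4 markers of germinal centre B cells, to a summed 198 to 375 CPM against 31.4 to 40.9 CPM in controls. The 4 plasma cell markers rose to 470.2 to 796 CPM, against 21.7 to 23.0 CPM in controls, and all 6 macrophage markers rose. Their part in the fall of the mitosis genes was not tested.

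Cell type markers also moved in the lymphomas. Of the T cell markers 5 fell in T58A and 6 in S62A lymphomas, and of the double-positive thymocyte markers 4 fell in T58A and 6 in S62A lymphomas. Of the 6 macrophage markers 5 rose in T58A and 6 in S62A lymphomas. Of the 7 thymic epithelium markers 5 fell in T58A and 7 in S62A lymphomas. In T58A lymphomas 4 of 6 B cell markers, 3 of 4 plasma cell markers and 1 of 5 fibroblast and endothelium markers rose, and 1 of 6 granulocyte markers fell. For the B cell markers Cd79a, Ms4a1 and Pax5 the rise came from T58A lymphomas 1 and 2. T58A lymphoma 3 lay under all controls for them (2.99, 2.53 and 0.863 CPM). Cd22, the other B cell marker called, was above the controls in every T58A lymphoma. In S62A lymphomas 2 of 4 plasma cell markers and 1 of 5 fibroblast and endothelium markers rose, 1 of 4 germinal centre B cell markers rose and 1 fell, and 2 of 6 B cell, 6 of 6 granulocyte and 2 of 7 erythroid markers fell. Their part in the lymphoma results was not tested. Of 32 genes, 29 had a value below 0 in T58A lymphomas and 19 in S62A lymphomas. The medians over all genes tested were 0.01 and 0.00, close to an even split around 0. The values of the 26 genes not called ran from -0.64 to 0.71 in T58A lymphomas and from -0.47 to 0.48 in S62A lymphomas. Without S62A lymphoma 1, the library lowest for 30 genes, 5 genes rose in S62A lymphomas, with Ndc80 (log2 fold change 0.66, adjusted p = 0.0386) and Kif11 (0.62, adjusted p = 0.0233) added; without control 1 or control 2, 1 gene fell in place of 3. Sample titles carry a letter whose meaning the labels do not give; control 3 and the T58A lymphomas share H, controls 1 and 2 have G, and both S62A groups have I. Within H, T58A lymphomas against control 3 had log2 fold changes of 2.04 for Ccnb1, -0.92 for Prc1 and -0.57 for Ccnb2. A lone control has no spread of its own, so this fit cannot decide whether the calls hold within H. For both S62A groups, the letter and the group cannot be told apart.

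Between the lymphomas, no mitosis gene was called in S62A against T58A at an adjusted p under 0.05 by edgeR, where 3.15% of all genes were called in either direction. At an unadjusted p under 0.05 there were 4, with no count over all genes given here to set beside them. DESeq2 called 2 higher, Bub1 and Kif11, where 617 of all genes rose and 1138 fell. Values above 0 were seen for 27 of the 32 genes, and the median log2 fold change was 0.24, against -0.01 over all genes. The nearest to the threshold were Kif11 (log2 fold change 0.67 ± 0.19, adjusted p = 0.0781), for which all S62A lymphomas lay above all T58A lymphomas, and Bub1 (0.67 ± 0.21, adjusted p = 0.0907), which was likewise separated. Mki67 had 527, 755 and 838 CPM in S62A lymphomas and 523, 476 and 417 CPM in T58A lymphomas (0.58, adjusted p = 0.203). Ccnb1 stood at 0.09, adjusted p = 0.717, and its groups overlapped. Without S62A lymphoma 1, Mad2l1 was called (0.83, adjusted p = 0.0314). The values range from -0.21 for Cenpa to 0.67 for Bub1, and a p that misses the threshold does not show that the lymphomas are alike.

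Splenomegaly masses and S62A lymphomas share the S62A change. Of the 32 genes 26 fell in masses against S62A lymphomas, where 28.6% of all genes fell, and none rose, where 25.6% did. Against T58A lymphomas 25 fell, where 24.6% of all genes fell, and none rose, where 20.5% did. Ccnb1 was the most changed gene in both, 7.02-fold lower than in S62A lymphomas (log2 fold change -2.81 ± 0.14, adjusted p = 3.79e-07) and 6.60-fold lower than in T58A lymphomas (-2.72 ± 0.14, adjusted p = 6.67e-07). Cenpf followed, at -1.99 ± 0.21, adjusted p = 2.67e-05 against S62A lymphomas and -1.71 ± 0.21, adjusted p = 0.000102 against T58A lymphomas. Kif11 came next, at -1.95 ± 0.20, adjusted p = 2.22e-05 against S62A and -1.28 ± 0.19, adjusted p = 0.000417 against T58A lymphomas. The 4th largest fall was that of Ndc80 against S62A lymphomas (-1.62 ± 0.28, adjusted p = 0.000631) and of Ube2c against T58A lymphomas (-1.21 ± 0.25, adjusted p = 0.00271).

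Mki67, Plk1, Prc1, Cdc20 and Nuf2 were called in neither of these comparisons. Without S62A lymphoma 1, the masses were called lower than S62A lymphomas for Mki67 (adjusted p = 0.0303), Prc1 (0.0115), Cdc20 (0.0287) and Aurkb (0.0348). Mki67 was also called there without splenomegaly mass 2 (adjusted p = 0.0474), and Cdc20 against T58A lymphomas without T58A lymphoma 1 (0.0303). Plk1, for which the masses overlapped both lymphomas, had -0.17, adjusted p = 0.338 against S62A and -0.10, adjusted p = 0.577 against T58A lymphomas. Prc1 had -0.33, adjusted p = 0.18 against S62A and -0.12, adjusted p = 0.649 against T58A lymphomas. Mki67 in masses was also spread over the range of T58A lymphomas (-0.03, adjusted p = 0.947). The count against T58A lymphomas fell to 15 without T58A lymphoma 2 or without splenomegaly mass 1, when the same 10 genes, Ccna2, Aurka, Tpx2, Aurkb, Birc5, Mad2l1, Ndc80, Kif4, Nusap1 and Kif23, lost their calls. Against S62A lymphomas the count was 22 to 30 with 1 library left out, and the calls lost without single libraries were those of Birc5 (adjusted p = 0.0545 to 0.0677), Incenp (0.0583 to 0.0948), Ttk (0.0586 to 0.135) and Cenpa (0.0758 to 0.161). All 6 B cell markers rose and 7 of 8 double-positive thymocyte markers fell in masses against each lymphoma. Of 8 T cell markers 2 fell against each lymphoma, and Cd2 rose against S62A lymphomas (adjusted p = 0.0291). Of 6 macrophage markers 4 rose and Itgam fell against each lymphoma. Against S62A lymphomas 5 of 6 granulocyte and 6 of 7 erythroid markers rose, where against T58A lymphomas 2 granulocyte markers fell and 1 erythroid marker rose. The part of these markers was not tested.

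Other genes of mitosis were read from lists of 139 genes in all, outside the 32. In T58A lymphomas 12 rose and 21 fell, in S62A lymphomas 32 rose and 13 fell, and in splenomegaly masses 3 rose and 88 fell, each against controls. Of all genes tested, 18.8% rose and 17.4% fell in T58A lymphomas, and 21.9% rose and 22.2% fell in S62A lymphomas. In splenomegaly masses 22.9% rose and 26.3% fell. The rises of the 139 in S62A lymphomas were thus near the share of all genes, and the falls in T58A lymphomas below it. The same shares are the background for the shorter lists below. Median log2 fold changes over the 139 were -0.11 in T58A lymphomas, 0.12 in the S62A lymphomas and -0.67 in splenomegaly masses. A list of 25 DNA replication genes, which act in S phase, had 0 rises and 5 falls in T58A lymphomas, 4 rises and 2 falls in S62A lymphomas, and 0 rises and 19 falls in splenomegaly masses.

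**Figure D5:**
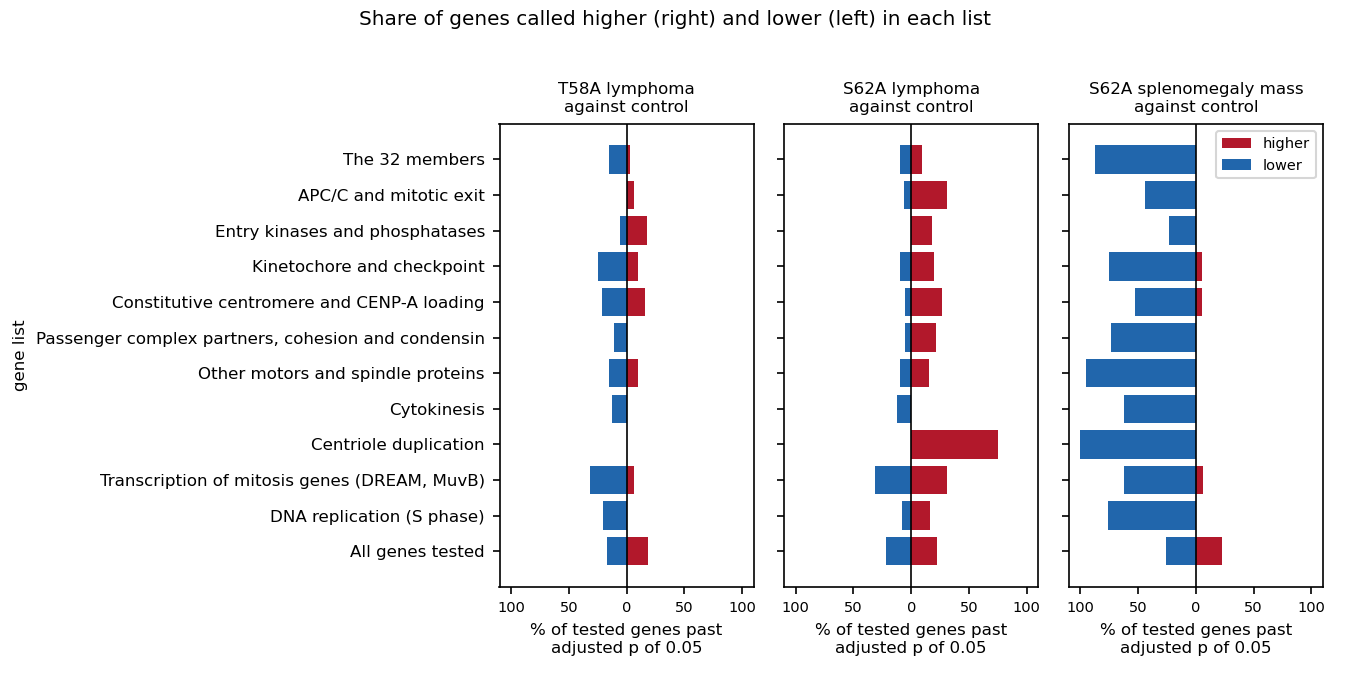
Share of each list's genes called (horizontal axis, percent; right, higher than controls; left, lower) for the 32 genes, the other mitosis lists and DNA replication, in T58A lymphomas, S62A lymphomas and splenomegaly masses. In splenomegaly masses 19 of 20 other motors and spindle proteins reach to the left, and in S62A lymphomas 3 of 4 centriole duplication genes reach to the right.

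Among 20 other kinetochore and checkpoint genes, 2 rose and 5 fell in T58A lymphomas, 4 rose and 2 fell in S62A lymphomas, and 1 rose and 15 fell in splenomegaly masses. Zwint, whose protein links the ZW10 complex to the outer kinetochore, averaged 169.9 ± 19.3 CPM in T58A lymphomas and 188 ± 9.2 CPM in S62A lymphomas, against 95.3 ± 4.38 CPM in controls (log2 fold change 0.83, adjusted p = 0.000215 in T58A and 0.98, adjusted p = 5.72e-05 in S62A). Trip13, the gene of an ATPase that remodels MAD2, rose in both as well (0.77, adjusted p = 0.00931 in T58A and 0.95, adjusted p = 0.00238 in S62A). Mad1l1, whose protein recruits MAD2 to kinetochores, averaged 66.4 ± 4.17 CPM in T58A lymphomas, 67.2 ± 27.6 CPM in S62A lymphomas and 30.5 ± 1.88 CPM in splenomegaly masses, against 179 ± 4.74 CPM in controls. It fell in all 3 groups, by 2.55 in splenomegaly masses (adjusted p = 1.56e-05). In the lymphomas, Mad1l1 thus fell and Mad2l1 lay above the controls.

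Of 19 genes of the constitutive centromere and CENP-A loading, 3 rose and 4 fell in T58A lymphomas, 5 rose and 1 fell in S62A lymphomas, and 1 rose and 10 fell in splenomegaly masses. Hjurp, the chaperone that loads CENP-A, averaged 264 ± 17.9 CPM in T58A lymphomas, against 594 ± 28.6 CPM in controls (log2 fold change -1.17, adjusted p = 0.000505). Cenpb, whose protein binds centromere repeats, rose in T58A lymphomas (0.91, adjusted p = 0.000481) and in splenomegaly masses (0.93, adjusted p = 0.000221). These 2 were also the only genes of the 139 called in S62A against T58A lymphomas, Hjurp higher (0.77, adjusted p = 0.0389) and Cenpb lower (-0.60, adjusted p = 0.0373). Cenpm, a subunit of the constitutive network, fell in T58A (-1.12, adjusted p = 0.00585) and S62A lymphomas (-1.69, adjusted p = 0.000455).

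Of 17 kinases, phosphatases and cofactors of mitotic entry, 3 rose and 1 fell in T58A lymphomas, 3 rose and none fell in S62A lymphomas, and none rose and 4 fell in splenomegaly masses. Cdc25a, a phosphatase that activates cyclin-dependent kinases, rose in T58A (log2 fold change 0.60, adjusted p = 0.0126) and S62A lymphomas (0.79, adjusted p = 0.00242). Ccnf, which encodes cyclin F, fell in T58A lymphomas (-0.95, adjusted p = 0.0123) and in splenomegaly masses (-1.75, adjusted p = 0.000243). The APC/C list of 16 genes had 1 rise in T58A lymphomas, 5 rises and 1 fall in S62A lymphomas, and 7 falls in splenomegaly masses, among them Fbxo5, the gene of the APC/C inhibitor EMI1 (-1.60, adjusted p = 0.000396).

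Of 20 other motors and spindle proteins, 19 fell in splenomegaly masses, with Ckap5, a microtubule polymerase gene, at a log2 fold change of -1.17, adjusted p = 2.88e-05. In S62A lymphomas 3 of them rose, among them Kif15, a motor that backs up Eg5 (1.24, adjusted p = 0.0088), and 2 fell; in T58A lymphomas 2 rose and 3 fell, among them Numa1, which encodes a spindle pole protein (-0.87, adjusted p = 0.00102). Of 19 genes of passenger complex partners, cohesion and condensin, 14 fell in splenomegaly masses, with the condensin II gene Ncapd3 at -1.77, adjusted p = 4.49e-06, and 4 rose in S62A lymphomas, with the condensin gene Smc2 at 0.88, adjusted p = 0.00604. The 4 centriole duplication genes all fell in splenomegaly masses and 3 of them rose in S62A lymphomas. Of 8 cytokinesis genes 5 fell in splenomegaly masses, with the RhoA exchange factor gene Ect2 at -1.40, adjusted p = 0.000525.

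Of 16 genes of the DREAM and MuvB complexes and their E2F partners, 1 rose and 5 fell in T58A lymphomas, 5 rose and 5 fell in S62A lymphomas, and 1 rose and 10 fell in splenomegaly masses. In T58A lymphomas the share of the 16 that rose was below that of all genes (18.8%), and the share that fell was above it (17.4%). With 16 genes these shares rest on few calls. The pocket protein genes went opposite ways in the lymphomas. Rbl1, which encodes p107, averaged 155 ± 15.2 CPM in T58A lymphomas and 230.3 ± 67 CPM in S62A lymphomas, against 101 ± 9.98 CPM in controls, and rose in both (log2 fold change 0.62, adjusted p = 0.0212 in T58A and 1.19, adjusted p = 0.000517 in S62A). Rbl2, which encodes the p130 of resting-cell DREAM, averaged 60.97 ± 13.9 CPM in T58A lymphomas and 84.2 ± 5.5 CPM in S62A lymphomas, against 145 ± 9.44 CPM in controls, and fell in both (-1.25, adjusted p = 0.000179 in T58A and -0.79, adjusted p = 0.00205 in S62A). Of these 16, the 1 gene that rose in splenomegaly masses was Mybl1 (1.43, adjusted p = 0.00698), which is also among the germinal centre B cell markers that rose there.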

How the data were processed

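RNA of thymic tissue was measured in 12 libraries, 3 in each of 4 groups taken from the labels; replicates were numbered by accession order, which pairs none of them. Per the labels' protocols, Trizol was used for extraction and libraries were made with a directional poly(A) kit. Per RefSeq transcript, the authors deposited raw read counts, as whole numbers, and FPKM values. The submitters' processing notes name bcl2fastq 2.20.0.422, Bowtie 1.0.0, DESeq2 and the build mm9; for the counting tool, its use of strand and its treatment of reads with several matches, the answer is not given in the sources used here. Start coordinates were read as counted from 0 and are printed counted from 1.

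Per symbol the row with the most reads was kept (24478 symbols), filterByExpr (minimum count 10) left 15606 genes, and edgeR 4.0.16 in R 4.3.3 fitted TMM-normalised counts with glmQLFit on all 12 libraries, with group as the only term. The 6 comparisons used glmQLFTest with Benjamini-Hochberg adjustment over all genes and a threshold of 0.05. Fold changes come from this fit, the first-named group over the other. The script was tested on simulated data. Alternatives were other scaling, no filter, 2 groups only, the longest row, DESeq2 1.42.0, limma 3.58.1 and each library left out. Depth is given in the results. Members, lists and tests were chosen with earlier results of these data known. Values per library are given for up to 4 genes with the largest rise and 4 with the largest fall per comparison, and for genes of each role; from the other lists, the 2 risen and 2 fallen genes with the smallest adjusted p in each list were candidates for naming.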

Additional observations from a re-analysis of the deposited data

How the results depend on the processing

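The 91 calls of the 32 genes over the 6 comparisons gave 1280 values under the alternatives, of which 0 reversed, 1177 kept the call and 103 lost it. For the 23 calls chosen by size of change, which concern 12 genes, 298 of 327 values kept the call and 29 lost it. For T58A lymphomas against controls, the 1 rise became 2, Mad2l1 being added, with the 2 groups fitted alone or with limma-voom and group weights. The 5 falls became 11 with the 2 groups alone, 9 with DESeq2 and 9 with limma-voom, and 3 to 5 with 1 library left out. For S62A lymphomas against controls, the 3 falls became 5 with limma on log2(FPKM + 0.5) and 1 to 4 with 1 library left out, and the 3 rises 2 to 5. For S62A against T58A lymphomas, the 0 rises became 2 with DESeq2 and 0 to 1 with 1 library left out. Over all genes that comparison gave 134 rises and 358 falls, 617 and 1138 with DESeq2, 0 and 0 with the 2 groups alone, and 1 and 0 with limma-voom. The 25 falls in splenomegaly masses against T58A lymphomas became 15 to 25 with 1 library left out. The rise of Bub1 in S62A lymphomas was also lost with RLE factors (adjusted p = 0.0603), library size only (0.0995), no filter (0.0592) and limma on FPKM (0.126), and the fall of Ccnb2 with the 2 groups alone (0.0675). Mki67 in splenomegaly masses against controls was called with library size only, DESeq2, limma-voom and limma on FPKM. In T58A lymphomas against controls, Mki67 and Top2a were called lower with the 2 groups alone, DESeq2 and limma-voom. Aurka and Bub1b were called lower with those and with RLE factors, library size only and limma on FPKM. The causes were not tested. Scaling by library size only moved the median of all genes by -0.107 on the log2 scale in splenomegaly masses against controls.

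No paired analysis was possible because the replicate numbers are the order of deposit and give no pairs. The biological coefficient of variation, the common spread between libraries of a group, was 41.1% in T58A lymphomas, 45.0% in S62A lymphomas, 28.0% in splenomegaly masses and 17.1% in controls, while the fit gave each gene 1 estimate shared by all groups.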
